A study of Brassica napus with 10 samples.

Results

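Among the genes counted in 3-day-old Brassica napus (rapeseed) microspore cultures, 41 stayed near their pollen level after heat stress (HS) with a low dose of trichostatin A (TSA) and were at least 3 times higher after HS with the high dose. They were chosen by measured values. A gene entered when its mean was at least 5 CPM (its count per 1000000 counts of the library) in pollen, 0.67 to 1.5 times the pollen mean at the low dose, and at least 3 times the pollen mean at the high dose. The 41 were found among 59458 genes, of which 24335 reached the pollen floor of 5 CPM. Because the 3 group means chose the genes, every level and group difference of the 41 given here is a description and no test of a treatment effect.

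TSA inhibits histone deacetylases, enzymes that remove acetyl groups from histone tails and so favour compact, less transcribed chromatin. Acetylated histones are generally found at active genes, and blocking deacetylation can raise transcription at many loci. In B. napus, HS and TSA each can divert isolated immature male gametophytes from pollen development to embryogenic growth. These statements are background and not results of these libraries.

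All 10 libraries came from cultures of the line DH12075 carrying the reporter pLEC1:LEC1-GFP, in which the LEC1 promoter drives a fusion of the embryo regulator LEC1 with GFP. The 3 pollen libraries were unsorted cultures kept at 18 °C for 3 days without HS or TSA, begun with 95% late unicellular microspores and 5% early bicellular pollen. The 4 HS + TSAlow libraries (0.05 µM TSA) and the 3 HS + TSAhigh libraries (0.5 µM TSA) were started from late unicellular microspores, given HS at 33 °C together with TSA for 24 h, then kept at 25 °C, and sorted by fluorescence for GFP at 3 days. The solvent DMSO was given in all of them. The sort gate was set against the wild-type line, and each sorted library pooled 150000 cells. The paper describes the sorted cells as multicellular embryogenic structures, mostly embryogenic calli. Pollen therefore differs from both TSA groups in starting cells, temperature, HS, TSA, sorting and cell type, which cannot be told apart here. The TSA groups differ by label in dose alone. The labels call the libraries of a group biological replicates. In such pooled samples, fewer cells of a type and less RNA per cell cannot be told apart.

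Total counts were 93367646 to 109105528 per pollen library, 51838498 to 61458274 per HS + TSAlow library and 58468526 to 67884748 per HS + TSAhigh library. The lowest count of any member in any library was 183, so counting error was small beside the differences between libraries described here. The deposited files do not pair gene IDs with gene names, and the one list in which the study does so holds no member, so the 41 have no named function here, the labelled cell types could not be checked against markers, and the members are described by position, gene model and level. Positions are those of the deposited table on the Darmor-bzh version 10 genome. Some libraries stood apart within their group. HS + TSAhigh library 1 was farther from libraries 2 and 3 than these were from each other, and HS + TSAlow libraries 1 and 4 were much closer to each other than to libraries 2 and 3. Deviations of HS + TSAlow libraries 1 and 4 went with those of HS + TSAhigh library 1 and against those of libraries 2 and 3. The doses hold these sets in unequal shares and no fit here models them, so dose and set are not fully separated. Values are therefore given for each library.

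Few genes took this course. Of the 929 genes that had a pollen mean of at least 5 CPM and reached 3 times that mean at the high dose, 549 (59.1%) were at least 3 times the pollen mean at the low dose already. A further 335 (36.1%) were 1.5 to 3 times pollen at the low dose, 41 (4.41%) were in the range near pollen, and 4 (0.431%) were below it. Seen from the low dose, 12069 genes stayed at 0.67 to 1.5 times the pollen mean. Of these, 8605 (71.3%) were in the same range at the high dose, 231 were at 2 to 3 times pollen, and the 41 members made up 0.340%. The rise therefore concerned a small fraction of the genes that were near the pollen level at the low dose.

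**Figure D1:**
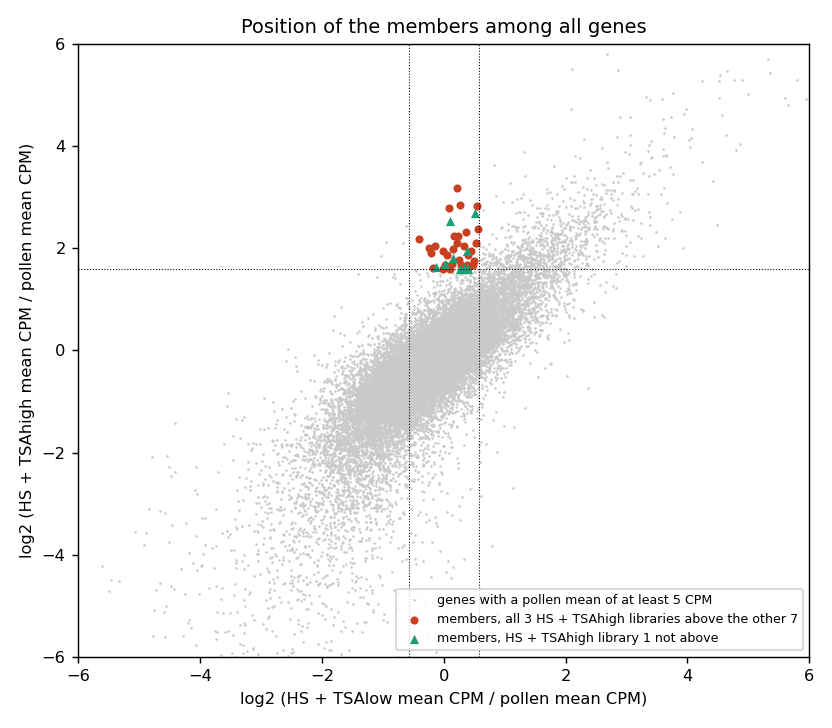
Each point is a gene with a pollen mean of at least 5 CPM, placed by the log2 ratio of its HS + TSAlow mean (horizontal) and HS + TSAhigh mean (vertical) to its pollen mean, with dotted lines at the ratios that define the members (0.67, 1.5 and 3). The 41 members lie above most of the cloud at their place on the horizontal axis, circles marking the 31 with all 3 HS + TSAhigh libraries above the other 7 and triangles the other 10, and 129 genes outside the axes and 35 at 0 in a group are not drawn.

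The thresholds cut through a continuous spread of genes. The member nearest to the high-dose threshold was 3.004 times its pollen mean and the nearest gene outside was 2.976 times, with 28 genes between 2.7 and 3 times. At the upper bound of the low-dose range the nearest values were 1.471 inside and 1.507 outside, and at the lower bound 0.753 inside and 0.651 outside. The lowest pollen mean of a member was 5.02 CPM, and the nearest gene that failed the floor alone was at 4.91 CPM.

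Together the 41 genes took 484.0, 581.8 and 521.8 CPM in the 3 pollen libraries (529.2 ± 49.3, SD, n = 3). In the 4 HS + TSAlow libraries their summed level was 555.0, 711.2, 643.0 and 581.7 CPM (622.7 ± 69.5, SD, n = 4). In the 3 HS + TSAhigh libraries it was 1731, 2222 and 2496 CPM (2150 ± 388, SD, n = 3), which is 4.06 times the pollen mean and 3.45 times the HS + TSAlow mean. All 3 HS + TSAhigh sums were above the sum in every other library, and library 1 was the lowest of them. Without the member of highest level the means were 455.3, 519.6 and 1914 CPM in pollen, HS + TSAlow and HS + TSAhigh.

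Most members were of modest abundance in pollen. The pollen means ran from 5.02 to 73.9 CPM with a median of 9.02 CPM, and 21 of the 41 were below 10 CPM. The HS + TSAlow means ran from 4.70 to 103.2 CPM (median 9.68 CPM) and the HS + TSAhigh means from 16.5 to 235.6 CPM (median 37.6 CPM). At the high dose 13 members reached 50 CPM and 5 reached 100 CPM. Scaled by exonic length, the members had 1.63 to 37.1 CPM per kb in pollen (median 5.64) and 5.71 to 175.2 CPM per kb at the high dose (median 20.3).

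The ratio of the HS + TSAhigh mean to the pollen mean was 3.00 to 9.11 (median 3.76), at least 4 in 16 members, at least 5 in 7 and at least 6 in 5. Against HS + TSAlow the ratio was 2.28 to 7.86 (median 3.27). At the low dose the ratio to pollen was 0.753 to 1.47 (median 1.18), above 1 in 33 members and below 1 in 8, so that the members leaned to the upper side of the range that chose them. HS + TSAlow libraries overlapped the pollen libraries in 37 of the 41. In 3 members all 4 HS + TSAlow libraries were above all pollen libraries and in 1 member all were below, while over the 24335 genes at the pollen floor these arrangements held for 18.1% and 39.3%.

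**Figure D2:**
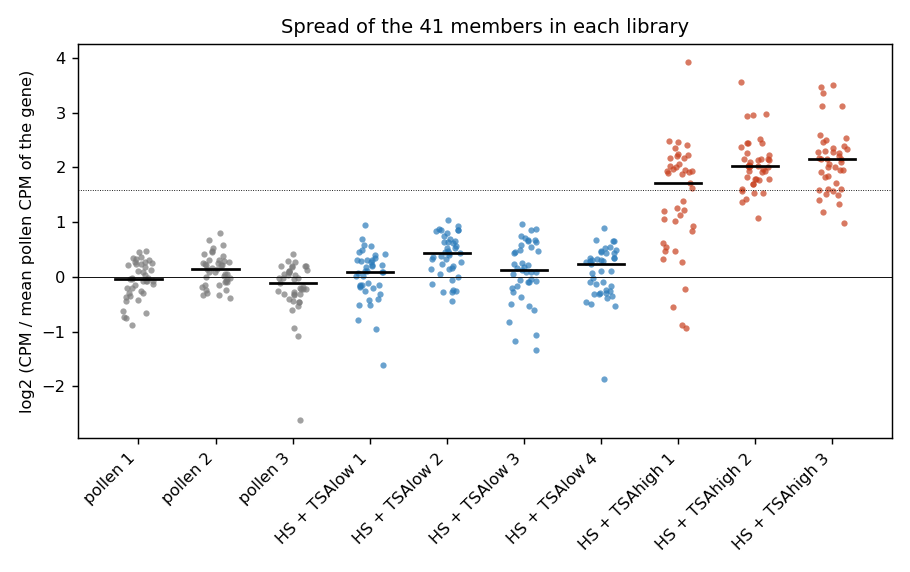
Each point is 1 of the 41 members in the named library, as the log2 ratio of its CPM to its own pollen mean CPM, with a bar at the median and a dotted line at 3 times pollen. The median ratios before taking logs were 3.27, 4.06 and 4.44 in HS + TSAhigh libraries 1, 2 and 3 and 1.07 to 1.35 in the HS + TSAlow libraries, and library 1 has a lower tail that reaches below the pollen mean.

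In a fit of all genes with edgeR's quasi-likelihood test, 45264 genes passed the filter on low counts, including all 41 members. A call was an adjusted p (Benjamini-Hochberg over these genes) no larger than 0.05. For HS + TSAhigh against pollen 39 members were called higher and 0 lower, beside 27.5% of all genes called higher and 18.8% called lower. At an unadjusted p under 0.05 the counts were 40 higher and 0 lower. For HS + TSAhigh against HS + TSAlow 35 members were called higher and 0 lower, beside 4.94% and 5.46% of all genes, and at an unadjusted p under 0.05 there were 40 and 0. Since these contrasts chose the members, nothing is read from the counts. The members' log2 fold changes were 1.63 to 3.23 against pollen (median 1.94, all-gene median 0.09) and 1.18 to 2.99 against HS + TSAlow (median 1.72, all-gene median 0.02), with median standard errors of 0.34 and 0.31.

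For HS + TSAlow against pollen edgeR called 2 members higher and 0 lower, beside 26.4% of all genes called higher and 17.4% called lower, and 4 higher and 0 lower at an unadjusted p under 0.05. The log2 fold changes were −0.36 to 0.61 with a median of 0.28, beside an all-gene median of 0.10. The low-dose range of the rule keeps strongly changed genes out, so the small count was set by the choice. A missing call does not show that a member was at its pollen level, since the median standard error of 0.31 is as large as many of the differences. The 2 calls also did not hold across settings: without HS + TSAlow library 2, HS + TSAlow library 3, pollen library 1 or HS + TSAhigh library 2 there were 0.

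The IDs of 4 members are given, chosen by level and by ratio. The member of highest level was A01p29230.1_BnaDAR, a 3-exon gene of 1991 exonic bases on the plus strand of chromosome A01 at 20210941 to 20213233. It had 57.3, 74.3 and 90.0 CPM in pollen (73.9 ± 16.4, SD, n = 3) and 97.0, 100.5, 114.7 and 100.6 CPM in HS + TSAlow (103.2 ± 7.87, SD, n = 4). In HS + TSAhigh it had 291.3, 190.8 and 224.8 CPM (235.6 ± 51.1, SD, n = 3). The 3 groups did not overlap, the low dose lying between pollen and the high dose. Its ratios to pollen were 1.40 at the low dose and 3.19 at the high dose, with log2 fold changes in edgeR of 0.52 (SE 0.19) and 1.70 (SE 0.20). It is 1 of the 2 members called higher at the low dose, a call that was lost in 13 of 20 alternative settings. Per kb of exon it was the highest member in pollen (37.1 CPM per kb) and the second at the high dose (118.3 CPM per kb).

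The largest ratio belonged to A03p59770.1_BnaDAR, a 3-exon gene of 2760 exonic bases on the plus strand of chromosome A03 at 29061212 to 29064147. Its pollen values were 3.10, 9.10 and 3.45 CPM (5.21 ± 3.37, SD, n = 3) and its HS + TSAlow values 4.71, 7.03, 4.91 and 7.53 CPM (6.04 ± 1.45, SD, n = 4). In HS + TSAhigh it had 21.7, 61.6 and 59.1 CPM (47.5 ± 22.3, SD, n = 3), with library 1 well below the other two but above every library of the other groups. The mean ratio to pollen was 9.11 at the high dose and 1.16 at the low dose. The log2 fold change of HS + TSAhigh was 3.23 (SE 0.51) against pollen and 2.99 (SE 0.46) against HS + TSAlow. The pollen mean was just above the floor of 5 CPM, with library 2 well above libraries 1 and 3.

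The lowest ratio at the low dose belonged to A09p18870.1_BnaDAR, a gene of 31 exons and 3350 exonic bases on the plus strand of chromosome A09 at 11711450 to 11720068. It had 17.0, 17.0 and 22.7 CPM in pollen (18.9 ± 3.33, SD, n = 3) and 10.9, 16.0, 16.5 and 13.5 CPM in HS + TSAlow (14.2 ± 2.56, SD, n = 4). In HS + TSAhigh it had 101.0, 71.4 and 84.0 CPM (85.5 ± 14.9, SD, n = 3). Every HS + TSAlow library was below every pollen library, and every HS + TSAhigh library was above both groups. The ratio to pollen was 0.753 at the low dose and 4.52 at the high dose, and the log2 fold change between the doses was 2.57 (SE 0.21). The log2 difference of −0.36 (SE 0.20) between HS + TSAlow and pollen was not called in edgeR.

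C04p33830.1_BnaDAR, with the next lowest ratio at the low dose, is a 6-exon gene of 1439 exonic bases on the plus strand of chromosome C04 at 34637249 to 34639887. Its values were 14.7, 17.8 and 16.0 CPM in pollen (16.1 ± 1.58, SD, n = 3) and 14.3, 13.4, 11.2 and 15.8 CPM in HS + TSAlow (13.7 ± 1.94, SD, n = 4), and these groups overlapped. In HS + TSAhigh it had 60.1, 69.4 and 64.8 CPM (64.8 ± 4.65, SD, n = 3). The 3 HS + TSAhigh libraries lay close together and far above the rest. Its ratios to pollen were 0.847 at the low dose and 4.01 at the high dose. The log2 fold changes of HS + TSAhigh were 2.04 (SE 0.17) against pollen and 2.25 (SE 0.16) against HS + TSAlow, and these standard errors were the smallest of any member in both contrasts.

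**Figure D3:**
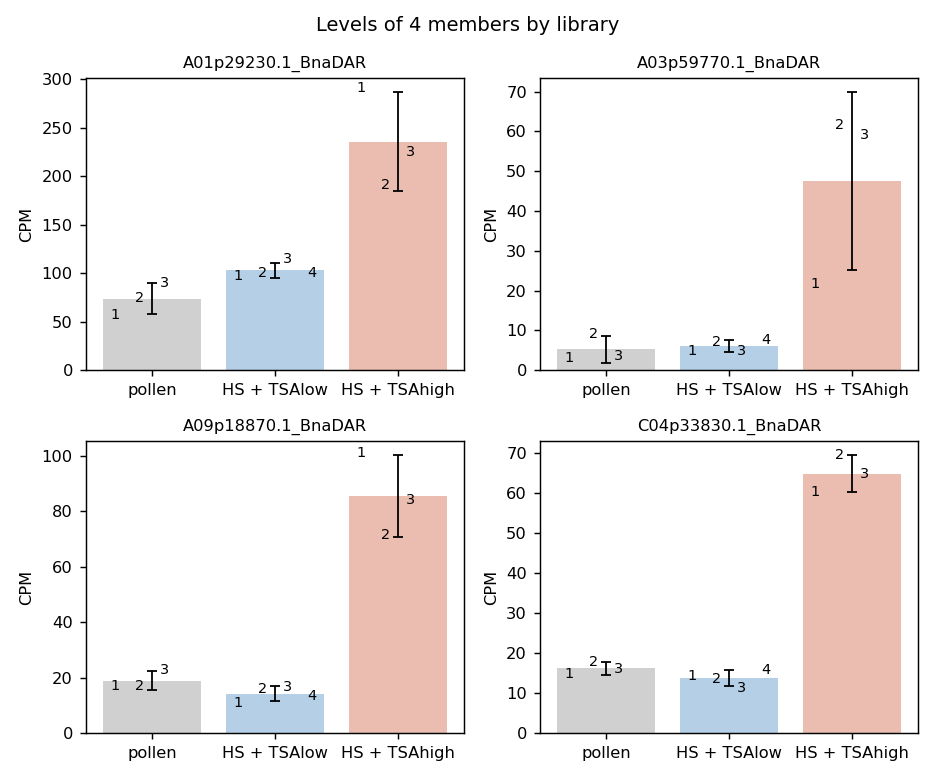
CPM of the 4 members given by ID, with bars at the group mean, error bars of 1 SD and digits marking the replicate number of each library (3 pollen, 4 HS + TSAlow, 3 HS + TSAhigh). In all 4 the HS + TSAhigh libraries lie above the other 7, with the widest spread relative to the mean in A03p59770.1_BnaDAR (21.7 to 61.6 CPM) and the tightest in C04p33830.1_BnaDAR (60.1 to 69.4 CPM).

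The HS + TSAhigh libraries did not contribute evenly. All 3 were above each of the other 7 libraries in 31 of the 41 members (75.6%), beside 4.45% of the 24335 genes at the pollen floor, a share that the rule itself raises. In the other 10 members libraries 2 and 3 were above the rest and library 1 was not. Library 1 was the lowest HS + TSAhigh library in 27 members (65.9%), against 30.5% of the genes at the floor, and the highest in 12 (29.3%), against 50.1%. The median ratio of libraries 2 and 3 to library 1 was 1.47 in the members and 0.906 over the genes at the floor. Taken singly, the libraries had 22, 35 and 33 members at 3 or more times the pollen mean, and no HS + TSAlow library had any. What sets library 1 apart was not tested.

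In the 10 members, library 1 was at 0.524 to 1.54 times the pollen mean (median 1.23) and libraries 2 and 3 averaged 3.83 to 9.40 times (median 4.21). In 9 of these 10 HS + TSAhigh library 1 was below 1.5 times the pollen mean. In the 31 members library 1 was at 1.78 to 15.3 times (median 3.84), close to the 2.20 to 11.6 times (median 4.15) of libraries 2 and 3. Beyond the 4 members given by ID, single members are given by position and were picked after their values were seen.

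The member with the widest gap was a 3-exon gene on chromosome C09 at 178691 to 181040. Its pollen values were 12.9, 21.4 and 18.2 CPM, and its HS + TSAlow values 18.8, 27.4, 31.7 and 21.5 CPM. In HS + TSAhigh it had 9.18, 135.3 and 194.2 CPM, so library 1 was below every other library while libraries 2 and 3 were far above. A 16-exon gene on chromosome C03 at 59655733 to 59667031 was similar, with library 1 inside the pollen range. It had 4.45, 30.4 and 33.3 CPM in HS + TSAhigh beside 3.41 to 8.25 CPM in pollen and 5.28 to 8.87 CPM in HS + TSAlow. A single-exon gene on chromosome A09 at 3650529 to 3651694 had 13.2, 52.7 and 75.8 CPM in HS + TSAhigh, with library 1 inside the pollen range of 12.5 to 17.6 CPM.

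The opposite case was an 11-exon gene on chromosome A09 at 38546267 to 38550869. It had 5.67, 9.82 and 4.94 CPM in pollen, 5.09, 8.79, 9.60 and 5.58 CPM in HS + TSAlow, and 103.8, 24.1 and 13.5 CPM in HS + TSAhigh. Library 1 held 73.4% of its summed HS + TSAhigh CPM, although libraries 2 and 3 were also above the other groups. In all, 5 members (12.2%) had over 50% of their HS + TSAhigh CPM in 1 library, beside 13.7% of the genes at the floor. These were libraries 1 in 2 members and 3 in 3 members. When the highest HS + TSAhigh library of each member was set aside, 23 members were still at 3 or more times the pollen mean and 0 fell below 2 times.

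**Figure D4:**
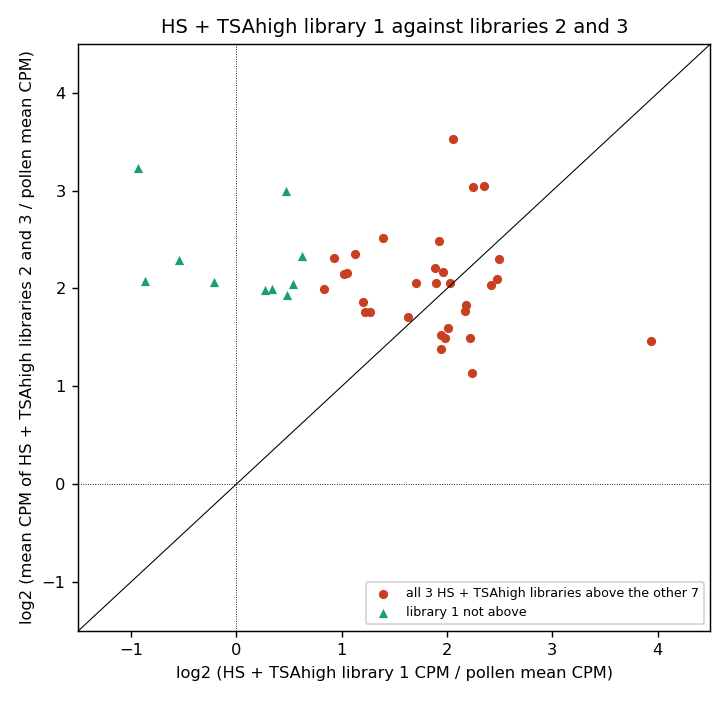
Each of the 41 members by the log2 ratio to its pollen mean of HS + TSAhigh library 1 (horizontal) and of the mean of libraries 2 and 3 (vertical), with a diagonal where they are equal. The 10 triangles, members in which library 1 was not above the other groups, are spread at 0.524 to 1.54 times pollen in library 1, and the point at the far right is the A09 gene with 103.8 CPM in that library.

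Removing a library changes which genes meet the rule. Without HS + TSAhigh library 1 the rule gave 66 genes, of which 35 were among the 41, so 6 members depended on that library and 31 further genes were kept out by it. Without library 2 it gave 41 genes with 33 shared, and without library 3 39 genes with 29 shared. Leaving out pollen library 2 gave 43 genes with only 27 shared, the lowest overlap of any library. Leaving out an HS + TSAlow library gave 40 to 52 genes with 37 to 40 shared. The list was thus steadier to the choice of HS + TSAlow libraries than to that of pollen or HS + TSAhigh libraries.

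Among the HS + TSAlow libraries, 2 and 3 were both above 1 and 4 in 16 members (39.0%) and both below in 9 (22.0%), beside 18.6% and 41.0% of the genes at the floor. A single-exon gene on chromosome C03 at 40543415 to 40544331 split most widely, with 10.7, 58.8, 53.4 and 8.90 CPM in HS + TSAlow. Its pollen values of 19.6, 40.6 and 37.7 CPM lay between these sets, and its HS + TSAhigh values of 101.0, 105.6 and 107.2 CPM lay above all. The mean at the low dose was near the pollen mean although no HS + TSAlow library was inside the pollen range. A 9-exon gene on chromosome A09 at 6359118 to 6361579 split in the same way, with 10.0, 23.8, 25.8 and 9.12 CPM in HS + TSAlow, 16.3, 21.2 and 2.14 CPM in pollen, and 7.22, 53.0 and 58.9 CPM in HS + TSAhigh. These were the 2 members that edgeR did not call for HS + TSAhigh against pollen, and both were also among the 6 not called against HS + TSAlow. Of these 6, 5 belonged to the 10 members in which HS + TSAhigh library 1 was not above all libraries of the other groups.

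Spread within groups was wider in the members than in other genes. The median coefficient of variation over the libraries of a group was 22.1% in pollen, 23.9% in HS + TSAlow and 31.2% in HS + TSAhigh, beside 13.5%, 18.2% and 22.0% for the genes at the floor. These are the same values that chose the members, and a choice by group means can favour genes with uneven libraries. The parts of that choice and of expression level in this spread were not tested.

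**Figure D5:**
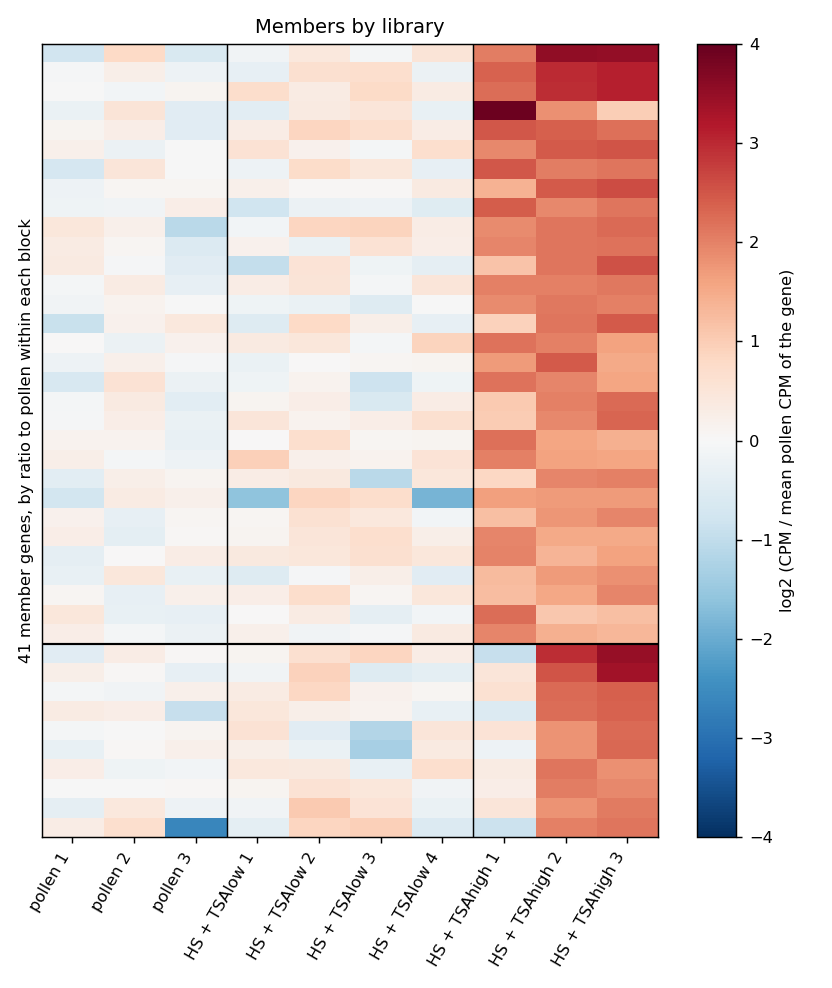
Log2 ratio of CPM to the pollen mean of the gene for the 41 members (rows, ordered by ratio within 2 blocks) in the 10 libraries (columns). In the upper block of 31 all 3 HS + TSAhigh columns are above the other 7, and in the lower block of 10 only HS + TSAhigh libraries 2 and 3 are.

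Some other strong members had all 3 HS + TSAhigh libraries above the other 7. A 9-exon gene of only 911 exonic bases on chromosome A09 at 44319200 to 44321821 had the highest level per kb at the high dose, 175.2 CPM per kb. It had 21.5, 25.8 and 19.0 CPM in pollen, 17.8, 34.5, 34.9 and 18.7 CPM in HS + TSAlow, and 112.5, 173.4 and 192.8 CPM in HS + TSAhigh, a ratio of 7.22 to pollen. A 7-exon gene on chromosome C07 at 29832633 to 29836818 had 5.46 to 6.36 CPM in pollen, 7.31 to 9.85 CPM in HS + TSAlow and 27.8, 45.3 and 51.0 CPM in HS + TSAhigh. It is 1 of the 3 members whose HS + TSAlow libraries were all above pollen. A 14-exon gene on chromosome C03 at 65282508 to 65286830 was another, with 8.41 to 13.9 CPM in pollen, 14.3 to 21.1 CPM in HS + TSAlow and 65.1, 60.1 and 53.8 CPM in HS + TSAhigh. This gene and A01p29230.1_BnaDAR were the 2 called higher at the low dose, with a log2 fold change of 0.61 (SE 0.21) for the C03 gene.

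Gene models were not used to choose the members. The median member had 5 exons and 1769 exonic bases, beside 6 exons and 1525 bases for the 24335 genes at the floor. Genes of 2 exons made up 8 members (19.5% against 9.08%), single-exon genes 5 (12.2% against 9.42%) and genes of 20 or more exons 1 (2.44% against 5.29%). The 5 single-exon members had ratios of 3.02 to 3.23 at the high dose, all near the threshold, and HS + TSAhigh library 1 was above the other groups in 1 of them. Of the 10 members in which library 1 was not above all libraries of the other groups, 4 had a single exon, against 1 of the 31. These counts are small, the split was made on the measured values, and a link with exon number was not tested. The members were split between the subgenomes, 21 in A and 20 in C, and 26 (63.4%) were on the plus strand, against 50%.

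The members lay on 14 of the 19 chromosomes. Chromosome A09 held 7 (17.1% of the members, against 7.11% of the genes at the floor), A01 held 5 (12.2% against 4.22%), C08 held 5 (12.2% against 5.20%) and A05 held 4 (9.76% against 4.78%). Others held fewer than their share, such as C03 (7.32% against 9.18%) and A03 (4.88% against 7.43%). The 5 chromosomes with no member included A06, with 5.28% of the genes at the floor. These counts are small, and an uneven spread over the chromosomes was not tested. No member was next to another in the table, a placement that is rare for any gene, since 0.0761% of the neighbours of all genes at the floor were members. The closest pair, on chromosome A05 at 1064629 to 1066852 and 1165372 to 1168928, were 98519 bases apart. A further member on A05 at 1657627 to 1660545 lay 488698 bases beyond. Whether members lie closer together than other genes was not tested. The first and second had all HS + TSAhigh libraries above the rest, with 64.8, 133.7 and 148.9 CPM in the first and 24.9, 22.3 and 16.6 CPM in the second, so that library 1 was the lowest for the first and the highest for the second.

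The genes on either side of the members, which the rule did not use, offered a separate view. Of these 82 neighbours 71 were tested in edgeR, and for HS + TSAhigh against HS + TSAlow 8 were called higher (11.3%) and 3 lower (4.23%). For the neighbours of all genes at the pollen floor the shares were 4.98% and 5.47%. The median log2 fold change was 0.27 in the members' neighbours and 0.03 in the others. For HS + TSAhigh against pollen 26 neighbours (36.6%) were called higher, against 27.5%. Neighbours share a chromosome region with the member and are few, and the difference in shares was not tested. The neighbour with the lowest adjusted p between the doses, picked after its values were seen, was the gene 349 bases before a 10-exon member on chromosome C09 at 49615486 to 49620519. It had means of 4.48, 9.63 and 22.8 CPM in pollen, HS + TSAlow and HS + TSAhigh, a log2 fold change between the doses of 1.24 (edgeR adjusted p = 0.00759).

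Overlapping gene models touched 2 members (4.88%, against 5.69% of the genes at the floor). The C03 member of 16 exons overlaps a gene on the other strand by 17 bases, and the C09 member of 10 exons overlaps one by 75 bases. The library kit did not keep strand, so reads in the shared bases cannot be told apart. The partner on C03 had means of 5.22, 5.27 and 5.46 CPM in pollen, HS + TSAlow and HS + TSAhigh and the partner on C09 0.215, 1.28 and 1.75 CPM. Both partners were below the HS + TSAhigh means of the members they overlap.

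The only B. napus genes to which the study gives names are its orthologs of arabidopsis genes of the endoplasmic reticulum (ER) stress response, the signalling by which cells answer misfolded protein in the ER. Of 52 such genes with counts, 48 had a pollen mean of at least 5 CPM, 12 were in the low-dose range and 1 reached 3 times pollen at the high dose. These are 25% and 2.08% of the 48, beside 49.6% and 3.82% of all 24335 genes at the floor. The number of members among the 52 was 0, from which nothing is read, since only 0.168% of the genes at the floor are members. The one that reached 3 times pollen was an ortholog of P24DELTA5, a protein of vesicle transport between ER and Golgi, with means of 11.1, 44.2 and 41.8 CPM in pollen, HS + TSAlow and HS + TSAhigh. It was already 3.99 times its pollen mean at the low dose and 3.77 times at the high dose, unlike the members.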

How the data were processed

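RNA was measured in 10 libraries made from pooled cells with SMART-seq v4, a kit that keeps no strand. Raw counts of reads per gene were deposited. According to the notes of the submitters, reads were aligned with STAR 2.7.10a and counted with featureCounts of Subread 1.5.2, and the genome was Darmor-bzh version 10. The paper's methods name other versions of STAR and featureCounts, and which were used for the deposited counts is not settled here. Normalized counts and the authors' own fold changes and p-values from DESeq2 were also deposited and were not used here. Of 61170 rows, 1712 repeat another row exactly and were dropped, leaving 59458 genes. Of the counts above 0, 71.5% are even, as when both mates of a pair are counted, so counts overstate independent fragments, and depth covers counting error only.

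CPM was computed from column sums with no further scaling. Counts were fitted with edgeR 4.0.16 in R 4.3.3 (filterByExpr with minimum count 10 and total 15, TMM, robust quasi-likelihood, all 10 libraries, Benjamini-Hochberg over 45264 genes). A standard error is the log2 fold change over the square root of its F statistic. The alternatives were DESeq2 1.42.0, limma-voom 3.58.1, other scalings, filters and thresholds, fits of 2 groups, HS + TSAlow libraries 1 and 4 summed, the replicate block, and each library left out. The fit was also run on simulated counts of independent libraries. That simulation held none of the library sets described here, so nothing on them is read from it. Tables and figures used Python 3.11.15, pandas 2.3.3, numpy 2.4.6 and matplotlib 3.10.9.

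The members and lists were chosen with earlier results of these data known. The rule for IDs printed took the member of highest HS + TSAhigh mean, the member of largest ratio of HS + TSAhigh to pollen, and the 2 members with the lowest ratio of HS + TSAlow to pollen. No ID matched the reference gene table (0 matches), so no further genes were named. The labels give groups the same replicate numbers. Deviations from the group means correlated by 0.354, 0.136 and 0.213 between same-numbered HS + TSAlow and HS + TSAhigh libraries, each over the 0.1 taken as a sign of pairing. Differently numbered libraries correlated to a like degree (HS + TSAlow 4 with HS + TSAhigh 1 by 0.290, 2 with 3 by 0.215, 3 with 2 by 0.194), so the numbers do not single out the pairs. The other correlations were negative. HS + TSAlow 1 and 4 correlated with HS + TSAhigh 2 and 3 by −0.282 to −0.179. HS + TSAlow 2 and 3 correlated with HS + TSAhigh 1 by −0.253 and −0.288. The libraries thus form sets that cross the doses. Neither the fit nor a block by replicate number models these sets, and their part in the dose comparison was not tested. The fit reported has no block, and the block was an alternative. Pollen libraries correlated with their numbers by 0.114 at most. HS + TSAlow libraries 1 and 4 differed by more than sampling noise (chi-square per degree of freedom 7.91 in read pairs, against 24.0 for the next closest pair) and were kept as 2 replicates. A difference beyond sampling noise does not show that they were independent cultures. The fit may therefore count too many independent HS + TSAlow samples, and summing these libraries was an alternative.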

Additional observations from a re-analysis of the deposited data

Results flagged for a closer look

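Among 43 sets of HS + TSAlow values (the 41 members, and the sum and the median over them), 3 had a library set apart from the other 3 by Dixon's criterion for 4 samples (0.829), which chance alone does for about 1 in 20 sets. The member on chromosome C06 at 25969510 to 25972614 had 13.96 CPM in HS + TSAlow library 2 and 5.15 to 6.58 CPM in the others. The member on chromosome A08 at 15525429 to 15529768 had 16.99 CPM in library 2 and 10.8 to 11.6 CPM in the others. The member on chromosome C05 at 49277347 to 49279499 had 3.02 CPM in library 3 and 7.75 to 8.62 CPM in the others. A09p18870.1_BnaDAR was the 1 member in which all HS + TSAlow libraries lay below pollen and all HS + TSAhigh libraries above it, with a ratio of 0.753 to pollen at the low dose. The difference between the doses, which the choice of members fixes in sign, was 2.57 on the log2 scale in edgeR.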

How the results depend on the processing

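The number of genes that met the rule followed its thresholds. It was 24 with a narrower low-dose range and 117 with one of 0.5 to 2, 272 with a high-dose ratio of at least 2 and 16 with at least 4, and 154 and 20 with pollen floors of 1 and 10 CPM. With each library left out in turn it was 39 to 66. TMM scaling gave 44 genes (38 shared with the 41), size factors 45 (40 shared) and group medians 58 (31 shared). Calls of HS + TSAhigh against pollen were 34 to 40 with 1 library left out, and against HS + TSAlow 26 to 39, with median log2 fold changes of 1.77 to 2.12 and 1.59 to 1.90. Against HS + TSAlow, the 35 calls became 28 with HS + TSAlow libraries 1 and 4 summed. In that fit 1174 of 45169 genes were called higher and 1622 lower, beside 2236 and 2473 of 45264 in the reported fit. The calls of members were 30 with only the 2 groups, 31 with limma-voom and 39 with DESeq2. For HS + TSAlow against pollen the 2 calls became 1 with DESeq2, RLE scaling, library totals, only the 2 groups, or libraries 1 and 4 summed. They became 0 with no filter or an adjusted p of at most 0.01, and were 0 to 3 with 1 library left out. The median log2 fold change of that comparison was 0.13 to 0.36 with 1 library left out, lowest without HS + TSAlow library 2. With the replicate block, 37 members were called higher against pollen, 27 against HS + TSAlow, and 2 for HS + TSAlow against pollen, so no count moved by over 1.5 times. The difference of A03p59770.1_BnaDAR between HS + TSAlow and pollen, not called in any setting, changed sign without pollen library 1 (log2 −0.037, against 0.24 with all libraries, and −0.037 to 0.93 over the libraries left out in turn). No other difference of the 4 members given by ID changed sign, and no median did. Printed differences of other genes were not followed across the settings.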
